A study of Mus musculus with 8 samples.

Results

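Regions of open chromatin that stood higher in CD4 T cells given added IL-2 numbered 2748, out of 95899 regions that at least 1 library listed among its strongest peaks and 175276 regions in all. They were chosen from assay for transposase-accessible chromatin (ATAC-seq) peak lists, in which a transposase marks DNA not packed away by nucleosomes. Peaks of 8 libraries were merged wherever they shared at least 1 bp, and each library was cut to its 65811 strongest peaks by −log10 p-value, so that every list had the length of the shortest one. A region was taken when at least 3 of the 4 libraries with IL-2 listed it and at most 1 of the 4 libraries without IL-2 did. Presence in these equal-number lists is therefore what chose the regions, and the contrast of IL-2 on them is a description with no test. The share of regions so called was 2.87%, and the same rule turned round called 2917 regions (3.04%), which serve below as the regions weaker with IL-2.

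All 8 libraries came from naive CD4 T cells sorted from mouse spleen, activated with antibodies to CD3 and CD28, given TGF-β at 20 ng/mL and harvested at 48 h, with 90000 cells per sample. The groups, with 2 libraries each, were Tet1/3 cDKO cells with TGF-β and IL-2 (100 U), control cells with TGF-β and IL-2, Tet1/3 cDKO cells with TGF-β only, and control cells with TGF-β only. The cDKO cells lack Tet1 and Tet3 by conditional deletion; the driver of the deletion, the ages of the mice and the animals behind each library are not stated in the labels, and one label field calls the control cells WT. The design text describes the replicates as biological, and without the animals the p-values below measure only the spread between these libraries.

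IL-2 is a growth factor for activated and regulatory T cells. Its receptor, whose high-affinity chain is the product of Il2ra, works through JAK kinases and the transcription factor STAT5, and feedback comes from SOCS proteins. TGF-β works through receptor kinases and SMAD transcription factors and, with T cell receptor stimulation and IL-2, drives naive CD4 T cells to express Foxp3 and become induced regulatory T cells. TET enzymes oxidise methylated cytosine, mostly at CG dinucleotides (CpG), a step on the way to its removal.

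The promoters that the regions covered were as a set richer in CpG than those under the weaker regions. They ranged from CpG-rich to CpG-poor, and a smaller share of them was CpG-rich than under all listed regions. Examples of both kinds are shown, all 5 under regions stronger with IL-2 and chosen after their values were seen. They are RefSeq windows (GRCm38.p6) from 250 bases before to 50 after a gene's start, printed 5′ to 3′ along the gene's strand with every CG dinucleotide in capitals. The CpG-rich promoters belong to Tet1, to Lef1, which encodes a transcription factor of naive and memory T cells, and to Tgif1, which encodes a repressor of SMAD-driven transcription. The CpG-poor ones belong to the cytokine gene Il9 and the chemokine gene Ccl3.
Tet1 promoter: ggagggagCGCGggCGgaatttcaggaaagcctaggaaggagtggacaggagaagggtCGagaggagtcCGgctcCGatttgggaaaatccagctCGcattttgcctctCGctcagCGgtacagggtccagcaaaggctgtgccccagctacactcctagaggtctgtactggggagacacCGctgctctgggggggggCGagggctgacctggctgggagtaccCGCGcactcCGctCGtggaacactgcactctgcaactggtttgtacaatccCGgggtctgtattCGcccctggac
Lef1 promoter: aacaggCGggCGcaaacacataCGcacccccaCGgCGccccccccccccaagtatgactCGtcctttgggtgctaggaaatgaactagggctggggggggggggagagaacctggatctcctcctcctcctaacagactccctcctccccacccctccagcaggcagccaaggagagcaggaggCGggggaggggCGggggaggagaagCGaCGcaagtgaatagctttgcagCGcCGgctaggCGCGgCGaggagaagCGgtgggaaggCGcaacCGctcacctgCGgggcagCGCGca
Tgif1 promoter: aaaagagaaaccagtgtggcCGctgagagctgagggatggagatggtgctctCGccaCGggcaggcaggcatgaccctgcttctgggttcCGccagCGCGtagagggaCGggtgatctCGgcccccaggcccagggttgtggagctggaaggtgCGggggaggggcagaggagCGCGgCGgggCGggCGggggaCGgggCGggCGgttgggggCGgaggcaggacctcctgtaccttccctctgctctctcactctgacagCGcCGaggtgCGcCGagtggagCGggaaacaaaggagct
Il9 promoter: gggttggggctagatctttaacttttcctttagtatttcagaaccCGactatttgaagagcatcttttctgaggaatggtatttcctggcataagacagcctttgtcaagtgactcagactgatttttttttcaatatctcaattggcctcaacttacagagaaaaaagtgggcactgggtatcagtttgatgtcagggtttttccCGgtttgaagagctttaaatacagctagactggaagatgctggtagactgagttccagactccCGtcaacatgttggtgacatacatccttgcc
Ccl3 promoter: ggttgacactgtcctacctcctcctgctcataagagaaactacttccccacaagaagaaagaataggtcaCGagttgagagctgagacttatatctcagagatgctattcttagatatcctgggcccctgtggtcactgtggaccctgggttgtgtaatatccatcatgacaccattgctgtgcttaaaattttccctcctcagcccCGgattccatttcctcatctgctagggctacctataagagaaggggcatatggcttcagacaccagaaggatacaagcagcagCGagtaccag
The Tet1 window (chr10:62887275-62887574, minus strand) had 17 CpG and an observed-to-expected CpG ratio of 0.607, the ratio being 1 where CG is as frequent as the C and G content predicts. The Lef1 window (chr3:131110073-131110372, plus strand, one of 2 start sites covered) had 21 CpG and a ratio of 0.620. The other Lef1 window (chr3:131110047-131110346), not shown, had 18 CpG and a ratio of 0.530. The Tgif1 window (chr17:70851161-70851460, minus strand) had 23 CpG and a ratio of 0.698. The Il9 window (chr13:56482208-56482507, minus strand) and the Ccl3 window (chr11:83649329-83649628, minus strand) had 3 CpG each, with ratios of 0.228 and 0.175.

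A last promoter is shown for a motif of STAT type, TTCNNNGAA, the form of element that STAT5 recognises. It lies before Fam53b (chr7:132776867-132777166, minus strand), and capitals mark the motif.
Fam53b promoter: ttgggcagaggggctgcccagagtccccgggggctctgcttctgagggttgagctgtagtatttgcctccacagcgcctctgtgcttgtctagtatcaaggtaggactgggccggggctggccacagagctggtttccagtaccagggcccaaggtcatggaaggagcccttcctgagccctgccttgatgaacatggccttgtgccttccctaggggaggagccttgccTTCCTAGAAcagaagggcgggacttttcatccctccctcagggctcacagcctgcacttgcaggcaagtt
A match of these letters is a description of the sequence and not a bound site. No genome of this build was at hand, so sequences of regions outside these windows are not shown.

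Purity of the cells was read from marker genes, counting listed regions within 1 kb of each gene. All 8 CD4 T cell markers (Cd3e, Cd3d, Cd3g, Cd4, Cd28, Cd5, Lck and Thy1) had regions in every library, 27 to 29 in all with IL-2 and 24 to 29 with TGF-β only. Of 4 markers per list, 2 to 3 B cell genes, 2 to 3 CD8 and NK cell genes, 1 to 3 myeloid genes and 1 to 2 erythroid genes had a region. Among these, Klf1, Cd8b1 and Klrb1c had 1 region in every library, Cd79a 2 to 3, Pax5 3 to 5 and Itgam 4 to 6. The haemoglobin gene Hba-a1 had 0 in every library, as did Ms4a1, Ncr1, Lyz2 and Alas2. None of the 4 lists of other cell types contributed one of the 2748 regions within that distance. Past it, a region 2.735 kb from Hba-a1 was among the 2748. The deposited lists held 65811 to 145979 peaks and give no read depth.

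With IL-2, the equal-number lists held 2018 and 2469 of the 2748 regions in the cDKO libraries (73.4% and 89.8%) and 2322 and 2397 in the control libraries (84.5% and 87.2%). With TGF-β only they held 250 and 254 in the cDKO libraries (9.10% and 9.24%) and 871 and 327 in the control libraries (31.7% and 11.9%). Replicate 1 of control cells with TGF-β only, which had the longest deposited list, thus held more than its partner and the cDKO libraries, while the other 3 libraries without IL-2 lay close together. The gap between arms is fixed by the rule, but the spread within each arm is not.

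**Figure D1:**
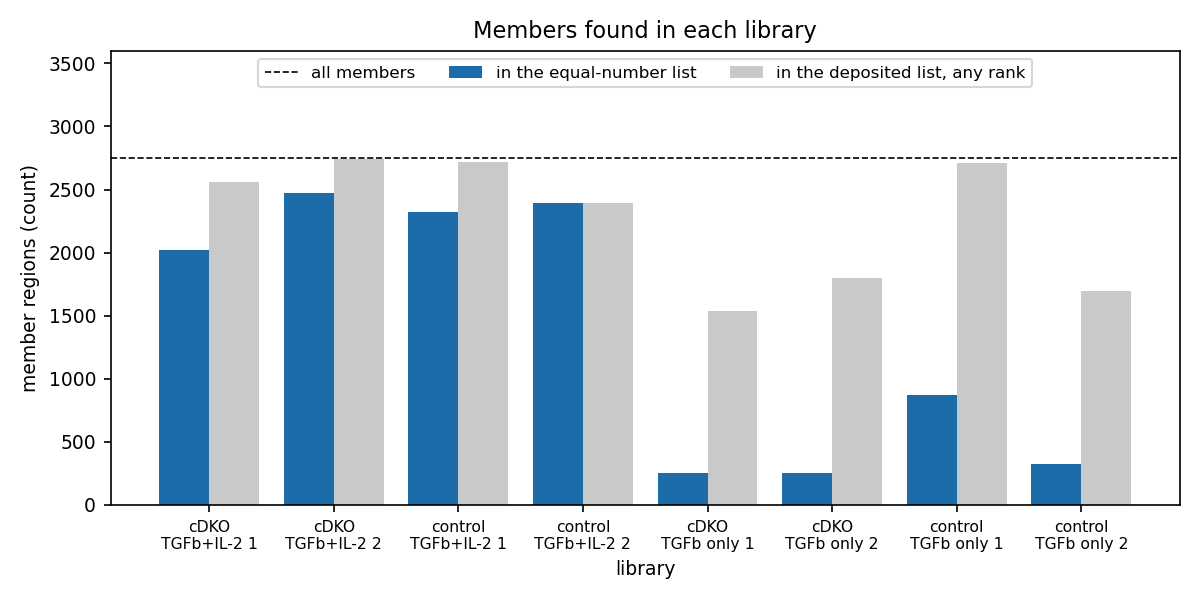
Regions stronger with IL-2 (members) that each of the 8 libraries listed, in its equal-number list and in its deposited list of full length (y axis, number of the 2748 regions; 1 pair of bars per library, no error bars since each bar is 1 library). In equal-number lists the 4 libraries with IL-2 hold 2018 to 2469 and those with TGF-β only 250 to 871; in deposited lists replicate 1 of control cells with TGF-β only holds 2707, as many as libraries with IL-2.

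The rule divided the regions into 334 listed by all 4 libraries with IL-2 and none without (0.348% of listed regions), 628 listed by 4 and 1, 712 by 3 and 0, and 1074 by 3 and 1. Just outside it stood 1308 regions listed by 4 and 2, 1928 by 3 and 2, 2290 by 2 and 0, and 2388 by 2 and 1. Each class just outside was thus larger than the largest class inside, and the boundary cuts through a continuum. Among the 1786 regions that 1 library with IL-2 missed, replicate 1 of cDKO cells was the missing one for 730 (40.9%), against 279 for replicate 2 of cDKO cells, 426 for replicate 1 of control cells and 351 for replicate 2 of control cells. Among the 1702 that 1 library without IL-2 listed, that library was replicate 1 of control cells for 871 (51.2%), replicate 2 of control cells for 327, and the cDKO replicates for 250 and 254.

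Most of these regions were weak to middling peaks. A rank of 1 denotes the strongest peak of a library's deposited list by the authors' −log10 p-value, and a region is listed when it ranks 65811 or better. Ranks past that come from lists of unequal length, and replicate 2 of control cells with IL-2 has none, because its list ends there; ranks are given as each peak's place in its own list. Over the 4 libraries with IL-2 the median rank of a listed region was 50331, and 87.2% of such listings lay in the lower part of the list, past rank 32905. Only 0.0652% ranked among the top 10000. Where a library with TGF-β only listed a region, the median rank was 54582.5.

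Most of the regions also had a peak somewhere without IL-2. In the deposited lists of full length, 1022 of the 2748 (37.2%) had a peak in all 4 libraries with TGF-β only, 710 in 3, 516 in 2, 488 in 1 and 12 in none. Those counts lean on replicate 1 of control cells with TGF-β only, whose list, the longest, had a peak at 2707 of the regions, against 1535 and 1801 in the cDKO libraries and 1695 in its partner. Without it, 1029 regions (37.4%) had a peak in all 3 remaining libraries, 717 in 2, 510 in 1 and 492 (17.9%) in none. All 4 libraries with IL-2 had a peak at 2171 of them (79.0%), and 835 (30.4%) had a peak in all 8 lists. Where a peak was present, their median rank in the deposited lists was 57251 and 54115 in cDKO cells with IL-2 and 52225 and 45518 in control cells with IL-2, against 75089 and 78023 in cDKO cells and 73920 and 73561 in control cells with TGF-β only. For most of the regions stronger here therefore means a higher place in the list, with or without that library, and not a peak gained. By the authors' own list lengths 500 of the 2748 (18.2%) met the rule, which called 1.55% of regions in those lists. The rule turned round called 3.94% there. That 0 of the 2748 met it was fixed by the choice, since each has a peak in at least 3 lists with IL-2.

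**Figure D2:**
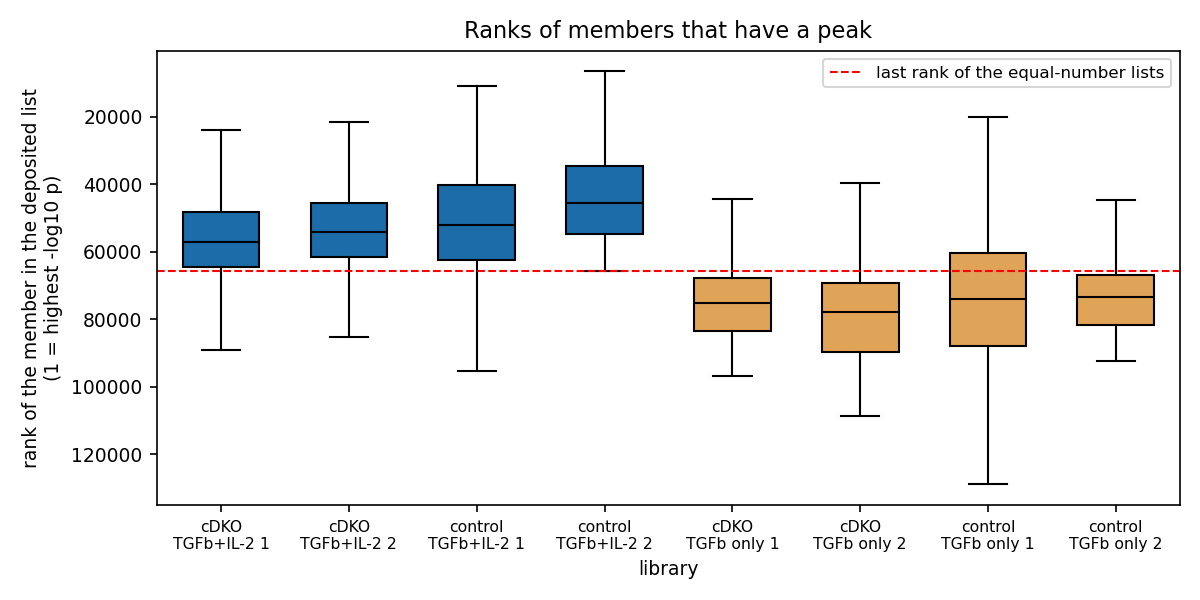
Ranks of the 2748 regions in each library's deposited list (y axis, rank, with rank 1 the strongest peak and drawn for the regions that have a peak; x axis, the 8 libraries; boxes span the quartiles with a line at the median, whiskers reach the furthest value within 1.5 box lengths, and values beyond are not drawn). Medians lie at 45518 to 57251 with IL-2 and at 73561 to 78023 with TGF-β only, on either side of rank 65811, where the equal-number lists end.

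Libraries that took no part in a choice were read next. In each of 16 repeats, 1 library of each arm was left out, regions were chosen that all 3 remaining libraries with IL-2 listed and none of the 3 remaining libraries without it did (519 to 1310 regions), and the share listed was read in the pair left out. The left-out library with IL-2 listed 51.3% to 80.1% of the regions (median 70.0%), and the left-out library with TGF-β only 12.3% to 52.4% (median 22.3%). The difference favoured IL-2 in 16 of 16 pairs, with a median of 41.2 percentage points and a range of 5.50 to 60.1. For scale, each library listed 65.1% to 67.4% of all regions in any equal-number list. The repeats share libraries and replicates, so they carry no p-value.

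The difference was smaller where 1 library was left out. Where replicate 1 of control cells with TGF-β only was left out, it listed 45.8% to 52.4% of the regions chosen without it, and the median difference was 26.8 points (5.50 to 31.1, 4 pairs). In the other 12 pairs the library with TGF-β only listed 12.3% to 26.3%, and the median difference was 45.3 points (28.1 to 60.1). The smallest difference came from replicate 1 of cDKO cells with IL-2 paired with that control library, at 55.9% against 50.4%.

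**Figure D3:**
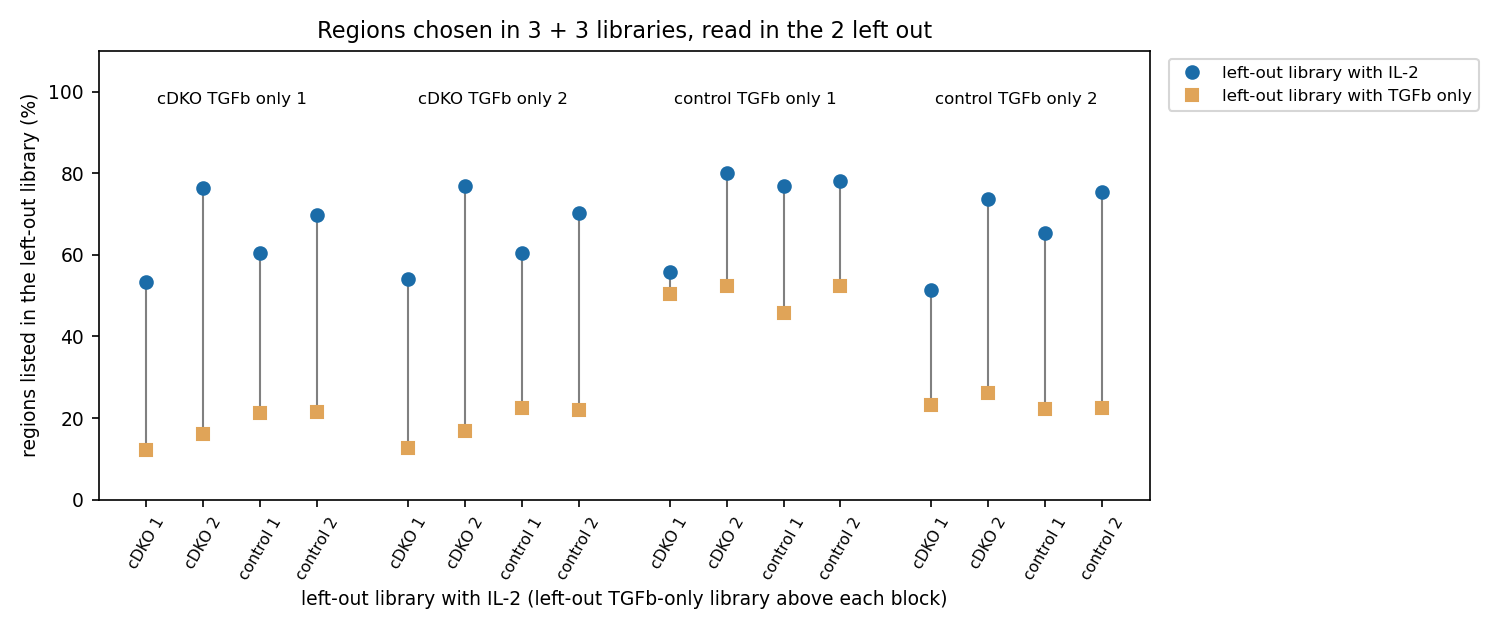
Share of newly chosen regions (y axis, %) listed in the left-out library with IL-2 (circles) and in the left-out library with TGF-β only (squares), for 16 pairs joined by lines and grouped by the left-out library with TGF-β only. The circle lies above the square in 16 of 16 pairs, and the squares of replicate 1 of control cells stand at 45.8% to 52.4%, above the 12.3% to 26.3% of the other blocks.

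Genotype did not enter the rule, but the equal-number listings counted here are those that the rule used. The rule limits misses with IL-2 and listings without it, so the counts of libraries within an arm depend on each other. With IL-2, cDKO libraries listed 2243.5 ± 319 of the regions and control libraries 2359.5 ± 53.0 (SD, n = 2 each). With TGF-β only, cDKO libraries listed 252 ± 2.83 and control libraries 599 ± 385 (SD, n = 2 each). Averaged over the arms, cDKO minus control was -231.5 regions (exact two-sided permutation test within IL-2 arms, p = 0.278, adjusted p = 0.556 over 2 tests). Leaving out 1 library gave -367.5 (without replicate 2 of control cells with TGF-β only) to -95.5 (without replicate 1 of the same group), and -118.75 without replicate 1 of cDKO cells with IL-2. In deposited lists the arms went opposite ways, with 2649 ± 130 in cDKO and 2558.5 ± 228 in control libraries given IL-2 (a difference of 90.5), and 1668 ± 188 in cDKO and 2201 ± 716 in control libraries with TGF-β only (a difference of -533; SD, n = 2 each). The average there was -221.25 regions (exact two-sided permutation test, p = 0.722, adjusted p = 0.722), and without replicate 1 of control cells with TGF-β only it was 31.75. The 36 relabellings allow no p below 0.0556, so this design could not pass a threshold of 0.05, and no conclusion about genotype is drawn.

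Both cDKO libraries with IL-2 and neither cDKO library without it listed 1333 of the 2748 regions (48.5%), and the same pattern held in control cells at 979 (35.6%). These counts carry the 871 regions that replicate 1 of control cells listed without IL-2, and the number complete in both genotypes (334) is the 4 and 0 class that the rule itself defines.

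By position the regions lay mostly away from gene starts. In the RefSeq gene table, 1492 of 2748 (54.3%) had their midpoint in the body of a protein-coding gene, against 55.5% of the regions weaker with IL-2, and 201 (7.31%) had no gene within 100 kb. Whether they are exonic, intronic or untranslated was not analysed here, since that table gives gene bodies without exons. Their median width was 385 bp, against 302 bp for the weaker regions, and their median distance to the nearest RefSeq start was 19.2 kb, against 22.2 kb. Within 1 kb of either end of a gene lay 262 of them (9.53%), against 132 of the weaker regions (4.53%) and 7.52% of the 18201 regions that any 3 to 5 libraries listed, but 16.4% of all listed regions and 28.0% of those listed in all 8. Of the 334 regions of the 4 and 0 pattern 20 (5.99%) lay there. Of all regions a library listed, 20.3% to 21.8% lay there with IL-2 and 19.9% to 20.9% with TGF-β only. These shares are descriptions and regions are not replicates. On the autosomes and X the regions made up 2.19% (chromosome 14) to 3.95% (chromosome 13) of listed regions, and on Y 0 of 42.

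Promoter windows were covered by 138 of the regions (5.02%), against 37 of the regions weaker with IL-2 (1.27%) and 589 of those in 3 to 5 libraries (3.24%), but 11.8% of all listed regions. The 150 windows so covered had a median GC content of 65.5% and a median CpG ratio of 0.694, and 93 (62.0%) had a ratio of 0.6 or more, the value often used for CpG islands. The 40 windows under the weaker regions had a median GC content of 51.2% and a median CpG ratio of 0.288, and 9 (22.5%) reached 0.6. The 661 windows under regions in 3 to 5 libraries lay between, with a median GC content of 57.7%, a median CpG ratio of 0.547 and 44.6% at 0.6 or more. The 14628 windows under all listed regions had a median GC content of 61.7% and a median CpG ratio of 0.763. Of these, 71.3% reached 0.6, so the stronger set lay below that background in CpG ratio. By the ratio of 0.6 the Tet1, Lef1 and Tgif1 windows printed above are of the CpG-rich kind, and those of Il9 and Ccl3 of the other. Tet1 and Lef1 passed it narrowly and lay below the median of the set, and the other Lef1 window did not pass it. Across whole lists the libraries with and without IL-2 showed no such difference: windows at 0.6 or more made up 73.4% to 73.8% of those covered in every library. Leaving out single libraries moved the 62.0% to between 51.2%, without replicate 1 of control cells with TGF-β only, and 62.4%.

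**Figure D4:**
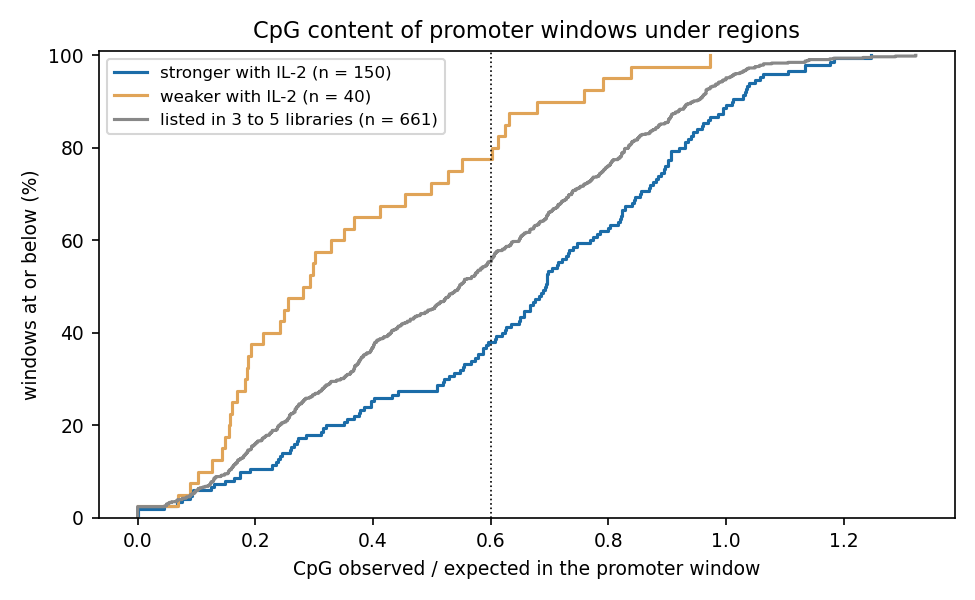
Cumulative share of RefSeq promoter windows (y axis, %) at or below each observed-to-expected CpG ratio (x axis, no unit), for windows covered by regions stronger with IL-2 (150), weaker with IL-2 (40) and in 3 to 5 libraries (661), with a dotted line at 0.6. The medians are 0.694, 0.288 and 0.547, so the curve of the stronger regions lies furthest to the right.

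The regions over promoters were distributed over libraries in another way than the rest. With IL-2, cDKO libraries listed 116 and 121 of the 138 (84.1% and 87.7%) and control libraries 82 and 128 (59.4% and 92.8%). With TGF-β only, cDKO libraries listed 30 and 21 and control libraries 20 and 21 (21.7%, 15.2%, 14.5% and 15.2%). For the regions away from promoter windows the shares with IL-2 were 72.9% and 90.0% in cDKO and 85.8% and 86.9% in control cells, and those with TGF-β only 8.43% and 8.93% in cDKO and 32.6% and 11.7% in control cells. The control library that stood apart without IL-2 did so away from promoters, and at promoters replicate 1 of control cells with IL-2 was the low one.

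The 10 regions over promoters with the best worst rank lay at Lrig3, Ripor2, Il9, Gm46592, Sorcs1, Clec2l, Wnt11, Gm39084, Insyn1 and Rab33a. At 6 of them (Lrig3, Ripor2, Clec2l, Wnt11, Insyn1 and Rab33a) the library that missed the region with IL-2 was replicate 1 of control cells. The region over the Gm39084 promoter (chr7:123097777-123098344), which lies inside the body of Tnrc6a, a gene of microRNA silencing, and not at its start, was listed with IL-2 by all 4 libraries. Its ranks were 43652 and 38926 in cDKO and 36210 and 51386 in control cells. With TGF-β only it had no peak and rank 61363 in cDKO, and ranks of 67903 and 66635 in control cells. The Fam53b region printed above for its motif (chr7:132776502-132777013) ranked 50602 and 52873 in cDKO and 46656 and 37450 in control cells with IL-2, against 77448 and 87124 in cDKO and 53970 and 74814 in control cells. At both regions the arms did not overlap. Where all 4 libraries with IL-2 and 1 without list a region, the choice leaves only that 1 library able to overlap.

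Motifs were searched on both strands of the same windows. The STAT type TTCNNNGAA was found in 16 of 150 (10.7%), in 2.5% of the windows under weaker regions, in 7.87% of those under regions in 3 to 5 libraries and in 8.30% of all 32851. The AP-1 type TGANTCA was found in 10 (6.67%), against 7.5%, 10.1% and 7.81%. The RUNX type TGTGGT was found in 19 (12.7%), against 30.0%, 16.2% and 16.8%. Under all listed regions (14628 windows) the shares were 6.70% for STAT, 5.35% for AP-1 and 12.6% for RUNX. Beside these, the STAT and AP-1 shares of the set were higher and its RUNX share nearly equal, with no test run. The weaker regions had only 40 windows, so 1 window is 2.5%.

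Of the 334 regions of the 4 and 0 pattern, the one with the best worst rank over the libraries with IL-2 lay in Fhit, a gene for a nucleotide hydrolase (chr14:10553753-10554305, GRCm38). Its ranks were 23153 and 18361 in cDKO cells with IL-2 and 25817 and 25376 in control cells with IL-2. With TGF-β only it had no peak and rank 82043 in cDKO cells, and rank 94594 and no peak in control cells. At every region of this pattern the choice fixes that the arms do not overlap. The Fhit region was also picked for its ranks with IL-2, so its margin is a description only. The authors' fold over background at this peak was 13.3 and 14.7 in cDKO and 12.5 and 8.98 in control cells with IL-2, each a value of its own library's calling.

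Next came a region in Fez2 (chr17:78405520-78406245), with ranks of 32314 and 31751 in cDKO cells and 32208 and 22496 in control cells with IL-2. With TGF-β only it had a peak in replicate 1 of control cells alone, at rank 79715. The others among the 15 regions of this pattern with the best worst rank belonged to Cd2bp2, Vim, Dapk2, Scrg1, Stau2, Camk2d, Qrfpr, H2-DMb1, Fam222b, Hormad2, Spatc1l, Scnn1g and Eif3h. Vim encodes the intermediate filament vimentin, Dapk2 a death-associated protein kinase and H2-DMb1 a chain of the molecule that loads peptides onto MHC class II. Replicate 1 of control cells with TGF-β only had a deposited peak, unlisted, at all 15.

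**Figure D5:**
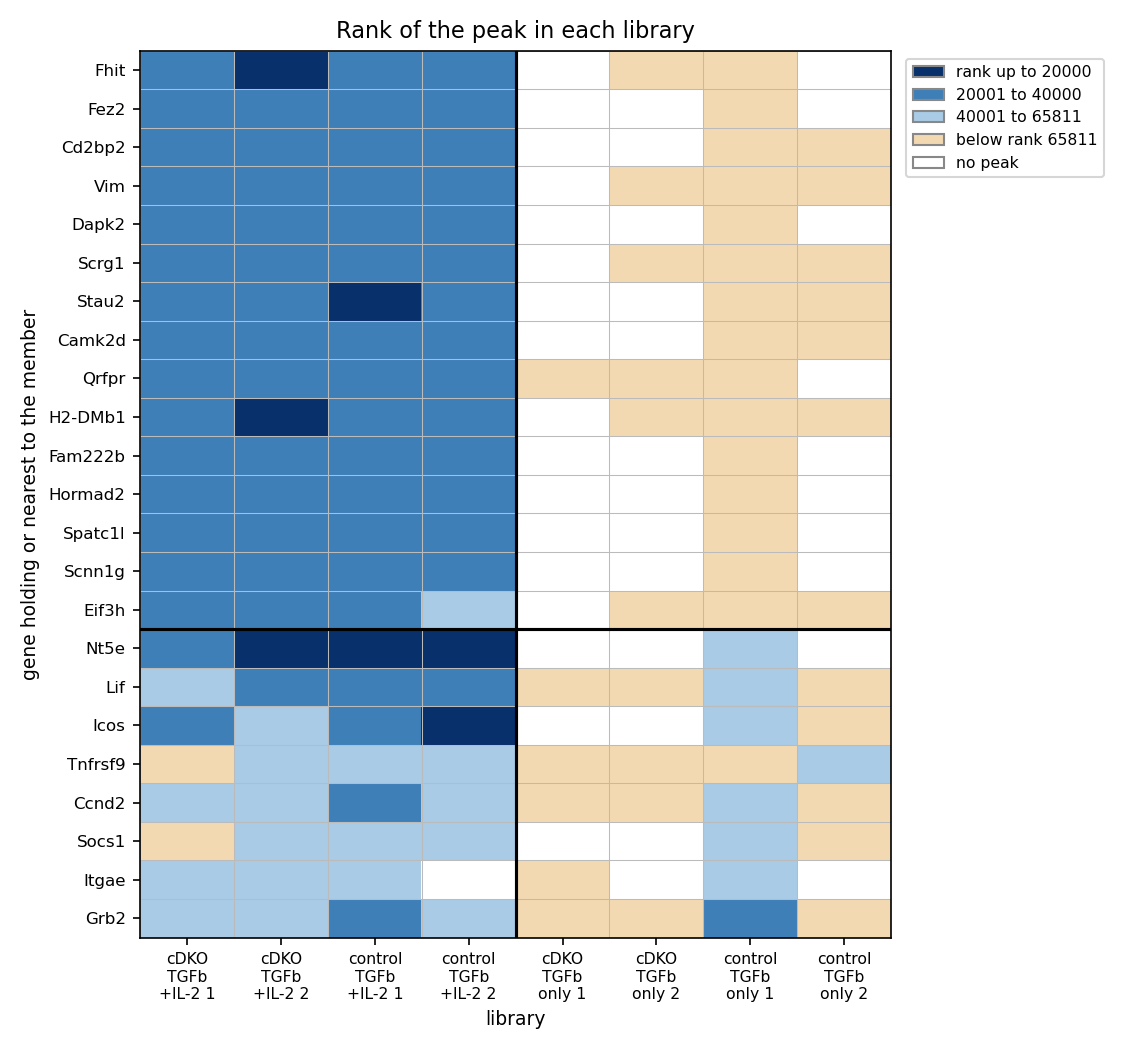
Rank class of the peak in each library (columns; darker blue for stronger listed peaks, sand for a deposited peak below rank 65811, white for no peak) at the 15 regions of the 4 and 0 pattern with the best worst rank (upper block) and at 8 regions of IL-2 and regulatory T cell genes (lower block). In the upper block all cells of the 4 libraries with IL-2 are blue and none of the others is, as the 4 and 0 pattern requires. In the lower block replicate 1 of control cells with TGF-β only is blue at 7 of 8 regions.

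A peak in all 4 deposited lists with IL-2 and in none with TGF-β only was found at 10 of the 2748 regions, and at 399 when replicate 1 of control cells with TGF-β only was left out. The 10 lay in or near Rfx7, Rad54l2, Efcab14, Irf2, Cd96, Lrrc32 and Npsr1, and 3 had no gene within 100 kb. Irf2 encodes an interferon regulatory factor, Cd96 a receptor of T and NK cells, and Lrrc32 the receptor GARP, which holds latent TGF-β on regulatory T cells. The Lrrc32 region (chr7:98517918-98518173, 16.2 kb from the gene) ranked 63651 and 52871 in cDKO and 95012 and 59697 in control cells with IL-2. The Cd96 region (chr16:46077200-46077567, in the gene) ranked 86041 and 65194 in cDKO and 41775 and 45847 in control cells. At each region 1 library with IL-2 ranked the peak past 65811 and another ranked it just before that.

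The IL-2 receptor, JAK and STAT5 list had 356 listed regions at its genes, of which 16 (4.49%) were stronger and 10 weaker with IL-2, against 2.87% stronger over all listed regions. The stronger ones lay at the receptor gene Il2ra, at Stat5b and the adaptor gene Grb2, at the feedback inhibitors Socs1 and Socs3, at the cytokine genes Lif and Osm, and at Bcl2, Bcl6, Ccnd2, Cdk6 and Myc, which act in survival, fate and the cell cycle. Bcl2, Bcl6, Il2ra and Myc also had weaker regions, and weaker ones alone were found at Gfi1, Il2, Il2rb and Jak1. So the genes of the pathway were split between both directions. Counting only gene bodies and 10 kb around them, the stronger share was 3.64% (11 of 302), nearer the 2.87%.

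The Il2ra region lay 1.33 kb outside the gene (chr2:11641332-11641586). It ranked 58947 and 51428 in cDKO and 25923 and 34388 in control cells with IL-2. Without IL-2 it had no peak in either cDKO library and ranks of 68241 and 81685 in control cells. The peak was thus nearer the top of the list in control cells than in cDKO cells in both arms, a difference not tested for a single region with 2 libraries a group. Il2ra as a whole had 19 listed regions, of which 1 was stronger and 1 weaker with IL-2. Its listed regions per library numbered 16 and 14 in cDKO and 14 and 14 in control cells with IL-2, against 15 and 14 in cDKO and 16 and 16 in control cells with TGF-β only. The Il2 gene had 10 listed regions, of which 0 were stronger and 1 was weaker, with 6 and 6 per library in cDKO and 7 and 7 in control cells with IL-2, against 7 and 7 in cDKO and 8 and 8 in control cells with TGF-β only.

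The Lif region (chr11:4307907-4308315, 35.6 kb from the gene, which encodes a cytokine of the IL-6 family) ranked 43818 and 33030 in cDKO and 34864 and 22470 in control cells with IL-2. Without IL-2 the ranks were 88783 and 84239 in cDKO and 63926 and 66794 in control cells. All 8 libraries had a peak here, and all 4 with IL-2 ranked it above the rest. At Socs3 (chr11:117930813-117931312) the ranks were 45116 and 73143 in cDKO and 58132 and 50083 in control cells with IL-2, against 66862 and 71885 in cDKO and 64188 and 73255 in control cells without it, so that the arms overlapped. Regions of both kinds were thus members under the same rule.

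Bcl2, a survival gene, and Ccnd2, which encodes cyclin D2, had 3 stronger regions each, with 1 weaker among 40 at Bcl2 and 0 among 23 at Ccnd2. The Ccnd2 region 91.1 kb from the gene (chr6:127243117-127243392) ranked 44726 and 50168 in cDKO and 36775 and 51230 in control cells with IL-2, against 74040 and 84989 in cDKO and 52708 and 77680 in control cells with TGF-β only. The arms did not overlap at that region, though replicate 1 of control cells, the only library the choice left able to overlap, came close. The region in Stat5b (chr11:100853061-100853445) ranked 89419 and 63547 in cDKO and 54674 and 51680 in control cells with IL-2; without it, no cDKO library had a peak and the control ranks were 77772 and 72834. That one overlapped through replicate 1 of cDKO cells.

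The regulatory T cell list had 11 stronger and 11 weaker regions among 299 (3.68% each), against 2.87% stronger and 3.04% weaker over all listed regions. The stronger lay at Ctla4 and Icos, genes of an inhibitory and a costimulatory receptor, at Nt5e, whose product makes adenosine, at Itgae, Itgb8 and Lrrc32, which bind cells or latent TGF-β, at the transcription factor gene Ikzf2 and at Tnfrsf9. The weaker lay at Ikzf4, Il1rl1, Nrp1 and Prdm1 and at Ctla4, Icos, Itgae, Nt5e and Tnfrsf9, which had both kinds. Foxp3 itself had 3 listed regions, and 0 were in either set. Its listed regions per library numbered 1 and 1 in cDKO and 1 and 1 in control cells with IL-2, against 2 and 2 in cDKO and 1 and 1 in control cells with TGF-β only. The region in Nt5e (chr9:88337481-88338015) ranked well above the median worst rank of the set (59721.5), at 27384 and 19030 in cDKO and 16406 and 10453 in control cells with IL-2. With TGF-β only, replicate 1 of control cells ranked it 40257 and no other library had a peak.

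In Icos (chr1:60974989-60975526) the ranks were 37746 and 46110 in cDKO and 35184 and 17974 in control cells with IL-2. Without it, no cDKO library had a peak and the control ranks were 46113 and 66534, so replicate 1 of control cells fell level with a cDKO library given IL-2. The region near Ctla4 (chr1:60875843-60876126) had the same form, with 57974 and 44408 in cDKO and 36390 and 32982 in control cells with IL-2, no peak in cDKO cells and 44420 and 74334 in control cells with TGF-β only. At these single regions the cDKO libraries had no peak without IL-2, while control replicate 1 had a listed one. Icos had 25 listed regions and Ctla4 23, and each had 1 weaker region as well.

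Itgb8, whose integrin chain activates latent TGF-β, had a pair of regions that no library with TGF-β only listed. The first (chr12:119125275-119125597, 37.4 kb from the gene) ranked 60711 and 30338 in cDKO and 37041 and 20499 in control cells with IL-2. The second (chr12:119208842-119209175, in the gene) ranked 63058 and 39981 in cDKO and 58987 and 43746 in control cells. Without IL-2 both had a peak in replicate 1 of control cells alone, at ranks 78215 and 113018. Ikzf2, which encodes the factor Helios, had 2 regions in the gene, and at both only replicate 1 of control cells had a peak without IL-2.

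TGF-β and SMAD genes had 10 stronger regions among 413 (2.42%) and 11 weaker ones, a share near the background. The stronger ones lay at Itgae, Itgb8, Ldlrad4, Pmepa1, Ski, Smad3, Smad4 and Tgif1. Counting only gene bodies and 10 kb around them, the stronger share was 3.17% (10 of 315), on the other side of the 2.87%. In Pmepa1, a gene induced by TGF-β whose product restrains the pathway, a region (chr2:173243654-173243916) ranked 52770 and 50711 in cDKO and 42565 and 39997 in control cells with IL-2, and had a peak without it in replicate 1 of control cells alone, at 74593. In Ski, a gene for a SMAD corepressor, a region (chr4:155216191-155216442) ranked 58505 and 48806 in cDKO and 52466 and 36393 in control cells with IL-2. Without it the ranks were 86030 and no peak in cDKO, and 111882 and 69538 in control cells. The arms did not overlap at either, which the choice fixes for regions of the 4 and 0 pattern.

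Over the Tgif1 promoter printed above (region chr17:70851025-70851456) the ranks were 49402 and 48137 in cDKO and 57140 and 47582 in control cells with IL-2, against 68560 and 76492 in cDKO and 70341 and 59567 in control cells with TGF-β only. The separation was complete but narrow, with peaks in all 8 libraries. The choice left only replicate 2 of control cells with TGF-β only able to overlap. In Smad3, which encodes a transducer of TGF-β, the region (chr9:63745858-63746128) had no peak in replicate 2 of control cells with IL-2. Deposited lists put a Smad3 peak in 3 libraries with IL-2 and 4 without, so that the direction there turned.

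At genes of other helper fates 2.44% to 4.35% of listed regions were in the set, against 2.87% over all listed regions. The Th1 and cytotoxic list had 9 of 216 (4.17%) and 4 weaker, at Ccl4, Cxcr3, Eomes, Il12rb2, Stat4 and Tbx21. The Th17 list had 9 of 277 (3.25%) and 10 weaker, at Ccr6, Hif1a, Il17f, Il6ra and Rora. The Tfh list had 8 of 184 (4.35%) and 7 weaker, and the Th2 list 3 of 123 (2.44%) and 3 weaker. Counting only gene bodies and 10 kb around them, the shares were 5.11% for Th1 and cytotoxic genes (7 of 137) and 3.27% for Th17 (7 of 214). They were 6.14% for Tfh (7 of 114) and 4.12% for Th2 (4 of 97), so the Th2 share changed sides of the 2.87%.

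Eomes and Tbx21 encode the T-box factors of type 1 immunity, and each had 2 stronger regions, with 0 weaker among 14 at Eomes and 1 among 10 at Tbx21. The Eomes region at chr9:118424200-118424705 (53.7 kb from the gene) ranked 45050 and 44501 in cDKO and 49428 and 59436 in control cells with IL-2, against 81040 and 83944 in cDKO and 75273 and 90132 in control cells without it. All 8 libraries had the peak, and the arms stood apart, which the choice fixes for a region of the 4 and 0 pattern. The Tbx21 region at chr11:97119440-97119773 ranked 59807 and 63932 in cDKO and 71711 and 57720 in control cells with IL-2, against 85740 and 88168 in cDKO cells without it and, in control cells, 89109 and no peak. The Cxcr3 region (chrX:101730125-101730487), near a chemokine receptor gene of type 1 cells, overlapped, at 75560 and 52417 in cDKO and 29487 and 50332 in control cells with IL-2, against 83846 and no peak in cDKO and 64086 and 66454 in control cells.

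Near the cytokine gene Il24, on the Th2 list, a region (chr1:130894575-130895154, 7.45 kb from the gene) ranked 63172 and 46301 in cDKO and 30734 and 30942 in control cells with IL-2. It had a peak without IL-2 in replicate 1 of control cells alone, at 73739. The Il9 promoter region (chr13:56482116-56482844) ranked 72935 and 49911 in cDKO and 25051 and 21406 in control cells with IL-2, and 92563 and no peak in cDKO and 46548 and 74082 in control cells with TGF-β only. At Il9 each control library thus ranked the peak above both cDKO libraries of the same arm where IL-2 was given. The Ccl3 promoter region (chr11:83649114-83649877), assigned to the overlapping Ccl4 model, overlapped between arms, at 65578 and 64620 in cDKO and 80147 and 43388 in control cells with IL-2, against 78631 and 98413 in cDKO and 83314 and 48454 in control cells.

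Ccr6, a chemokine receptor gene of Th17 cells, had a region 1.29 kb from the gene (chr17:8234422-8235080) with ranks of 44452 and 56766 in cDKO and 35649 and 36482 in control cells with IL-2. Without IL-2 the ranks were 83378 and no peak in cDKO, and 65806 and 71703 in control cells. Hif1a, which encodes the hypoxia factor, had 3 stronger and 1 weaker among 20 listed regions, and Rora, a gene for a Th17 factor, 3 of each among 73. The Hif1a region at chr12:73879721-73880034 ranked 53870 and 52133 in cDKO and 44398 and 21762 in control cells with IL-2, against no cDKO peak and control ranks of 62818 and 85137 without it. Ccr6 and this Hif1a region both stood apart between arms. At each the choice left only replicate 1 of control cells without IL-2 able to overlap.

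Genes of naive and memory cells had 16 of 597 (2.68%) and 20 weaker, near the background. Within gene bodies and 10 kb around them the count was 9 of 415 (2.17%), and for activation genes 6 of 283 (2.12%). The 16 stronger ones lay at Bach2, Ccr7, Cd44, Foxp1, Id2, Il6ra, Klf2, Lef1, S1pr1, Tcf7 and Zeb1. The region over the Lef1 promoter printed above (chr3:131109995-131110612) ranked 70607 and 59597 in cDKO and 57800 and 55568 in control cells with IL-2, against 77032 and 77142 in cDKO and 89856 and 88664 in control cells with TGF-β only. All 8 libraries had the peak, and the 4 with IL-2 ranked it higher. In Tcf7, the partner factor of Lef1 in naive cells, the region (chr11:52254034-52254465) ranked 44932 and 47460 in cDKO and 66132 and 55639 in control cells with IL-2, against no cDKO peak and control ranks of 60426 and 67123. There the control libraries overlapped between arms and the cDKO libraries did not.

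Activation genes had 13 of 452 (2.88%) and 12 weaker, again near the background, and metabolic genes 4 of 216 (1.85%) and 6 weaker. Near Fos, an immediate early gene (chr12:85427693-85428007), the ranks with IL-2 were 59312 and 64034 in cDKO and 61761 and 43752 in control cells, and without it a peak was found in replicate 1 of control cells alone, at 93056. The metabolic genes were Gapdh and Hk2 of glycolysis, with 1 and 2 regions, and Odc1 of polyamine synthesis. The list of cell adhesion and T cell receptor genes had 7 of 320 (2.19%) and 11 weaker. Of the lists of other cell types, B cell genes had 1 of 43 (Ebf1) and 0 weaker, CD8 and NK cell genes 0 of 30 and 2 weaker, myeloid genes 1 of 65 (Adgre1) and 2 weaker, and erythroid genes 1 of 17 (Hba-a1) and 0 weaker. Over all 16 lists 105 of 3459 regions (3.04%) were stronger and 100 weaker, and 30 genes had both kinds. Within gene bodies and 10 kb around them the stronger share was 3.0% (78 regions).

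Among TET and DNA methylation genes 6 of 116 regions (5.17%) were stronger and 3 weaker, against 2.87% and 3.04% over all listed regions, at Tet1, Tet2, Tet3 and the DNA methyltransferase gene Dnmt3a. Tet1 had 13 listed regions, of which 2 were stronger and 1 weaker, and Tet3 had 17, of which 1 was stronger and 0 weaker. The deleted exons are not given, so these regions do not check the knockout. Over the Tet1 promoter printed above (region chr10:62886244-62887456) the ranks were 64122 and 63125 in cDKO and 70251 and 50666 in control cells with IL-2, against 78162 and 80516 in cDKO and 126893 and 62270 in control cells with TGF-β only. Replicate 2 of control cells overlapped the arm with IL-2.

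A region in Tet2, whose gene was not targeted (chr3:133542150-133542386), ranked 52091 and 33139 in cDKO and 29551 and 35216 in control cells with IL-2, and had a peak without it in replicate 1 of control cells alone, at 79536. The other Tet2 region (chr3:133510431-133510679) overlapped between arms, with replicate 2 of cDKO cells without IL-2 at 40188, above every library with IL-2. In Tet3 (chr6:83392553-83392804) the ranks with IL-2 were 38176 and 31502 in cDKO cells, and 56836 and no peak in control cells. With TGF-β only they were 96693 and no peak in cDKO, and 47144 and 73188 in control cells. At this Tet3 region the cDKO libraries followed the rule and the control libraries did not.

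Genes with the most regions were BC107364, Cradd, Dusp22 and Kcnj15, with 5 each, then Arhgap26, Bod1, Cd47 and Clec16a, with 4 each. In the same order these genes had 19, 37, 23 and 19 listed regions, then 48, 19, 30 and 49. Over all listed regions the share in the set was 2.87%. The genes were picked by their counts, and genes with more listed regions have more that could be counted. Dusp22 encodes a phosphatase that restrains T cell receptor signalling, Cd47 the surface protein that protects cells from being engulfed, and Kcnj15 a potassium channel. BC107364, Dusp22, Kcnj15, Bod1 and Cd47 had 0 weaker regions, and Cradd, Arhgap26 and Clec16a had 2 each. Of the 2100 genes assigned, 1755 had a single region. In Kcnj15 (chr16:95282855-95283138) a region ranked 43171 and 31747 in cDKO and 18605 and 26055 in control cells with IL-2, and had a peak without it in replicate 1 of control cells alone, at 90652. In Cd47 (chr16:49877887-49878538) a region ranked 44363 and 30583 in cDKO and 29237 and 18701 in control cells with IL-2, against no peak and 82341 in cDKO and 47333 and 72707 in control cells. The arms did not overlap, though replicate 1 of control cells without IL-2, the only library the choice left able to overlap, came close.

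Some of the strongest peaks in the set were those that replicate 1 of control cells also listed. The region 91.0 kb from Ncoa2, a gene for a nuclear receptor coactivator (chr1:13465004-13465436), ranked 20905 and 9330 in cDKO and 11263 and 15397 in control cells with IL-2. Without IL-2 it ranked 91812 and 85344 in cDKO and 30152 and 74453 in control cells. The region in Mcub, which encodes a subunit of the mitochondrial calcium channel (chr3:129930287-129930782), ranked 18624 and 10606 in cDKO and 17407 and 11551 in control cells with IL-2. Without IL-2 it ranked 87601 and 72163 in cDKO, and 45304 in control replicate 1 with no peak in replicate 2. The arms stood apart at both regions, with replicate 1 of control cells the nearest of those without IL-2. It was also the only library the choice left able to overlap.

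Where 1 cDKO library with TGF-β only listed the region, the best ranked were at Svep1, C2cd4b and Hbb-bt. The Hbb-bt region, 0.196 kb from a beta-globin gene (chr7:103812198-103812459), ranked 34731 and 23719 in cDKO and 31259 and 31798 in control cells with IL-2, against 64106 and 70963 in cDKO and 98747 and 77200 in control cells without it. The C2cd4b region (chr9:67719685-67720585) ranked 35371 and 23792 in cDKO and 32792 and 18229 in control cells with IL-2, against 89893 and 64174 in cDKO and 71157 and 81794 in control cells. All 8 libraries had both peaks, and the arms did not overlap. At each region the choice left only the listing cDKO library without IL-2 able to overlap. The region 2.735 kb from the alpha-globin gene Hba-a1 was also in the set. It ranked 60147 and 50961 in cDKO and 55245 and 42847 in control cells with IL-2. Without IL-2 it had rank 77315 and no peak in cDKO, and rank 66989 and no peak in control cells. Within 1 kb, the erythroid markers Gata1, Klf1, Hba-a1 and Alas2 had 1 to 2 listed regions in all with IL-2 and 2 with TGF-β only. The part of erythroid cells in the results at both globin genes was not tested.

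Where a library with IL-2 missed the region, the best ranked were at Serpinb9, Mettl21c and 2010003K11Rik for a cDKO library and at Cmc1, Chst12 and Itpr2 for a control library. The region near Serpinb9, a gene for an inhibitor of granzyme B (chr13:32992234-32992590), ranked 72952 and 30630 in cDKO and 19746 and 25103 in control cells with IL-2, against no cDKO peak and control ranks of 40038 and 69815 with TGF-β only. The region of Chst12, a gene for a chondroitin sulfotransferase (chr5:140538378-140538613), ranked 29011 and 36571 in cDKO and 31759 in replicate 1 of control cells with IL-2, with no peak in replicate 2. Without IL-2 it had a peak in replicate 1 of control cells alone, at 73643. A single missing library with IL-2 could thus be of either genotype at regions that the other 3 ranked high.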

How the data were processed

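The authors deposited 1 peak list per library, with each peak's fold over background (a ratio) and its −log10 p-value and −log10 q-value. MACS2 (version 2.2.7.1), Bowtie2 (version 2.4.1) and build GRCm38 (mm10) stand in the submitters' processing notes, beside tools for trimming, duplicates and annotation, with no role or order. Read shifting, duplicate handling and depth are not stated in the labels, so no counting interval is given.

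Lists were merged and cut to equal length in Python 3.11.15 (pandas 2.3.3, scipy 1.17.1), ranking by −log10 p with ties by fold. A region belongs to the smallest RefSeq gene body (GRCm38.p6, 21896 protein-coding genes) holding its midpoint, or else the nearest within 100 kb. Promoter windows numbered 32851. Genotype was tested by exact permutation within IL-2 arms with Benjamini-Hochberg adjustment over 2 tests. Merging and the counting of libraries were checked on simulated lists, with regions planted in all 4 libraries with IL-2 and none without. The cut to equal length was not part of that check, so it does not measure how the rule works near the cut.

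The members and the 16 gene lists (282 of 283 genes matched) were chosen with earlier results of these data known. Named regions are those with the best worst rank per pattern, promoter class and gene list, those found only with IL-2 in deposited lists, the genes with most regions, and Il2ra, Il2, Foxp3, Tet1 and Tet3. Further regions given with ranks, among them those of Ccl3, Lef1, Tgif1, Fam53b, Lrrc32 and Cd96, were singled out after their values were seen. Alternatives were deposited lists, shorter lists, ranking by fold, 50% cover, a stricter rule, leaving out libraries, and other distances to genes.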

Additional observations from a re-analysis of the deposited data

Results flagged for a closer look

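Of 27 sets of 4 libraries examined for a single value far from the others, 3 were picked out; chance alone does so in about 5% of sets. Replicate 1 of control cells with TGF-β only listed 871 of the 2748 regions, far above the other 3 libraries without IL-2 (250 and 254 in cDKO cells and 327 in control cells). Its deposited list was the longest, with 145979 peaks; the part of list length or depth in this was not tested. The authors' fold over background at the Eif3h region was 6.08 in replicate 2 of control cells with IL-2, far below the other libraries with IL-2. At the Dapk2 region the fold in the same library was 5.90, again the lowest of the 4. That library had the shortest deposited list, with 65811 peaks. Its fold was low over its whole equal-number list, with a median of 6.25 against 8.36 to 8.95 in the other libraries with IL-2.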

How the results depend on the processing

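The number of stronger regions was 2718 with deposited lists (500 of them among the 2748), 2873 when ranked by fold (1468 shared) and 2772 with a peak covering 50% of its region (1805 shared). It was 1417 with equal-number lists of length N halved (114 shared) and 334 under all 4 against none. Leaving out 1 library, which loosens the rule and keeps all 2748 by construction, gave 3995 to 5685. Weaker regions numbered 6910 with deposited lists, 1470 with N halved, 220 under all 4 against none and 4217 to 6040 with 1 library left out. The stronger share of both sets together was 48.5%, and 28.2% with deposited lists, 46.1% by fold, 39.0% with 50% cover and 49.1% with N halved.

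The median difference over left-out pairs was 26.7 points with deposited lists (13 of 16 pairs higher with IL-2, -43.5 to 67.9), 47.0 with N halved, 34.7 by fold and 34.1 with 50% cover (15 of 16 pairs). The share at gene ends was 23.7% within 5 kb (21.7% for regions in 3 to 5 libraries), 7.51% with deposited lists (6.35%), 14.3% with N halved (11.0%), 5.99% under all 4 against none and 8.02% (without replicate 1 of cDKO cells with IL-2) to 12.0% (without replicate 1 of cDKO cells with TGF-β only) with 1 library left out, a setting chosen after seeing the data, as were promoter CpG, left-out pairs and presence in deposited lists without single libraries. Cause was not tested for these.

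The genotype difference kept its sign when 1 library was left out in equal-number lists (-367.5 to -95.5) and ranged from -474.25 to 31.75 in deposited lists, turning without replicate 1 of control cells with TGF-β only. With N halved it was -124 and -48.5; all 4 against none gave -46.25 in deposited lists and cannot vary in equal-number lists, so it was not run there. Replicate numbers gave no pairing shared by all groups: same-numbered deviations correlated at 0.375 between the arms of control cells and at -0.190 to 0.0375 elsewhere. Whether the control libraries were paired was not tested. The replicate block gave p = 0.25 and p = 0.75 (exact permutation tests), where the differences were -231.5 and -221.25.

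Of 103 named regions, 40 moved by no more than the spread between libraries with deposited lists, 25 with N halved, 72 by fold and 87 with 50% cover. The number of libraries with IL-2 minus those without turned to -1 with deposited lists at Tet1 (the region inside the gene), Itgb2, Ikzf1, Dnmt3a, Il12rb2 and Smad3, and when ranked by fold at Cd247 and Itpr2.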
